A study of Homo sapiens with 2 samples.

Results

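The phagocyte NADPH oxidase is represented here by 6 subunit genes, CYBB, CYBA, NCF1, NCF4, RAC1 and RAC2, out of 22465 genes measured in U937 cells, a human leukemia line with monocytic features. Each of the 6 had exactly 1 row of the deposited table whose annotation named that gene alone, so no member was left without a row and no member could be checked against a second row. The group was chosen by function with the array values already in view, and the low value of CYBB was known, so all values below are descriptions. The comparison was between TWIST-1-transduced U937 cells, which received TWIST-1 cDNA in a lentiviral expression vector, and vector-transduced U937 cells, which received the empty vector. The paper's transduction method included sorting for green fluorescent protein, which its array section does not mention. Each condition was 1 culture on 1 Affymetrix Human Transcriptome Array 2.0. There were no replicates, so no difference below has a replicate error or a p-value, and TWIST-1 cannot be told apart from a difference between the cultures or the arrays.

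The phagocyte NADPH oxidase transfers electrons from NADPH across a membrane to oxygen and so produces superoxide, the first product of the respiratory burst with which neutrophils and monocytes kill microbes. Its membrane core is a heterodimer of gp91phox (encoded by CYBB) and p22phox (encoded by CYBA). In resting cells the organiser p47phox (NCF1) and the adaptor p40phox (NCF4) wait in the cytosol, and they move to the membrane together with a RAC GTPase when the cell is stimulated. Loss of the subunit encoded by CYBB, CYBA, NCF1 or NCF4 causes chronic granulomatous disease, and the X-linked form arises from CYBB.

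The log2 value of a gene is the deposited level of its transcript cluster, the probes grouped by the array design for one locus, and a log2 ratio is the value on the TWIST-1 array minus that on the vector array. The threshold of the study's array method, 1.2-fold, is a log2 ratio of 0.263 in either direction. The paper's results also name a P value criterion. It was not applied here because each condition had 1 array, so the calls below rest on fold change alone. Of all 22465 genes, 2.85% were at least 1.2-fold lower and 2.71% at least 1.2-fold higher in TWIST-1-transduced cells. Of the 6 subunits, 1 was lower (CYBB), 0 were higher and 5 were short of the threshold. Because the group was chosen with these ratios known, nothing is read from that count against those shares. Among all genes past 1.2-fold, 48.7% were higher as deposited, 28.7% after loess, 32.2% when quantile normalized again and 23.3% with each ratio centred on the median gene, so the balance of directions rests on the scaling. The brighter genes, those whose mean log2 value over both arrays reached the median of 5.19, numbered 11233, and 4.23% of them were lower and 1.66% higher. All 6 subunits belonged to them, CYBB only through the vector array, since its TWIST-1 value lay below 5.19. The median ratio of the 6 was -0.10 (-0.15 with centred ratios and -0.05 after loess or another quantile normalization), against 0.04 over all genes and 0.0035 over the brighter genes.

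The RefSeq promoter table used here matched 3 of the 6 subunit genes, CYBB, CYBA and NCF1, and not NCF4, RAC1 and RAC2. The 250 bases before each transcription start are printed because CYBB had the lowest ratio of the subunits, NCF1 the next lowest and CYBA the highest. Capitals mark 3 kinds of motif, searched on both strands without regard to spacing. They are the E-box CANNTG, the type of site that basic helix-loop-helix factors such as TWIST-1 bind, the core GAGGAA of sites for PU.1, the myeloid factor that drives CYBB in phagocytes, and the box CCAAT. The windows are from GRCh38.p14, at chrX:37779809-37780058 on the plus strand for CYBB, chr7:74773761-74774010 on the plus strand for NCF1 and chr16:88651054-88651303 on the minus strand for CYBA.
CYBB: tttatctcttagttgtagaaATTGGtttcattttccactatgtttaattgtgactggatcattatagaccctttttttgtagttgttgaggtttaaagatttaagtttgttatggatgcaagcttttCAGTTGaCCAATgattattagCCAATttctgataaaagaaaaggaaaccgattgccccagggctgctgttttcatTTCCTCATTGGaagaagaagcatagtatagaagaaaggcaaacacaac
NCF1: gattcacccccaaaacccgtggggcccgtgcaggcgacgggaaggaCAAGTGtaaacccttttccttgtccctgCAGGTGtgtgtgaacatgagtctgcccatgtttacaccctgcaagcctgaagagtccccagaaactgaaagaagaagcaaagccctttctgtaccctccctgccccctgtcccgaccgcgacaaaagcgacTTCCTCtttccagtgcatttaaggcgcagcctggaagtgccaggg
CYBA: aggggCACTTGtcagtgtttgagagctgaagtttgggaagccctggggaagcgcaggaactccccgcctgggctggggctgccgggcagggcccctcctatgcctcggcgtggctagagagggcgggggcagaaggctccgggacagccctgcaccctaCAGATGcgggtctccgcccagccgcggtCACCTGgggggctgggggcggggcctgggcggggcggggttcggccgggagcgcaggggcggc

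The windows differed in composition, with 34.0% G and C for CYBB, 56.4% for NCF1 and 73.6% for CYBA. The CYBB window held 1 E-box, starting at -123 from the transcription start, 1 PU.1 core on the minus strand starting at -48, and 4 CCAAT boxes, of which the one starting at -42 abuts the PU.1 core. The NCF1 window held 2 E-boxes, starting at -204 and -176, and 1 PU.1 core on the minus strand starting at -45, with 0 CCAAT boxes. The CYBA window held 3 E-boxes, starting at -245, -91 and -63, and neither of the other motifs. In none of the 3 windows did matches to different motifs overlap. These matches are common, as an E-box was present in 61.8%, a PU.1 core in 23.6% and a CCAAT box in 32.0% of the 35116 promoter windows of the same length. A match describes letters only and not binding, and the part of any motif in these ratios was not tested.

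CYBB, the catalytic subunit that carries the heme and flavin groups, had a log2 value of 5.09 in TWIST-1-transduced and 6.46 in vector-transduced U937 cells. On the linear scale these values are 34.0 on the TWIST-1 array and 88.1 on the vector array, so the TWIST-1 array held 38.6% of the vector signal. The log2 ratio was -1.37, or 2.59-fold lower. Only 0.0312% of all genes were at least 2-fold lower, and CYBB was the only subunit among them. Its ratio was the lowest of all but 1 of the 22465 genes, the lower one being the microRNA gene MIR548W at -1.72, whose values of 2.97 in TWIST-1-transduced and 4.69 in vector-transduced cells put it among the dimmer genes. In RNA from a whole culture, fewer cells with the transcript and less transcript per cell cannot be told apart.

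**Figure D1:**
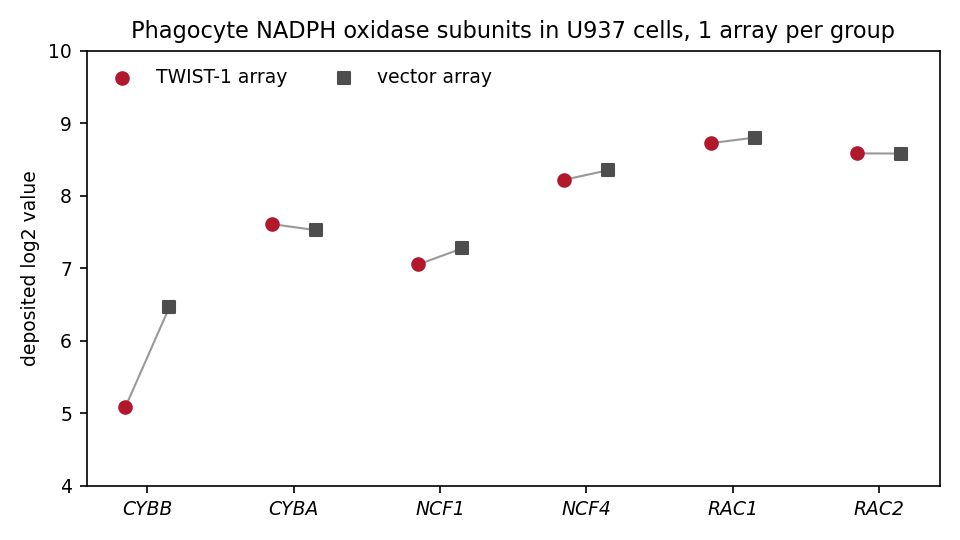
Deposited log2 value of each subunit on the TWIST-1 array (red circles, left) and the vector array (grey squares, right), 1 array per condition with no error bars. CYBB was at 5.09 on the TWIST-1 array and 6.46 on the vector array, while the points of each other subunit differed by at most 0.22. Values of different genes come from different probes, so only the step within a gene can be read.

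CYBA encodes p22phox, the small membrane subunit that stabilises gp91phox and docks p47phox. Its log2 value was 7.61 in TWIST-1-transduced and 7.53 in vector-transduced cells, a ratio of 0.08 or 1.06-fold. It was the highest ratio of the 6, and it ranked 7397 from the highest of all genes, well within the bulk. The ratios of the membrane partners lay far apart, with CYBB minus CYBA at -1.46 on the log2 scale. The ratio of CYBA stayed between 0.04 and 0.13 under the other scalings of the arrays.

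NCF1 encodes p47phox, whose phosphorylation releases it to bind p22phox. Its log2 value was 7.05 in TWIST-1-transduced and 7.27 in vector-transduced cells. The ratio of -0.22, or 1.17-fold lower, was the lowest after CYBB and was short of 1.2-fold, ranking 1082 from the lowest of all genes. With ratios centred on the median gene it was -0.263 and reached the threshold narrowly, while after loess normalization it was -0.21. NCF1 also has near-identical pseudogene copies on the same chromosome, NCF1B and NCF1C, whose transcripts the probes may not separate from its own, so its value is uncertain.

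The copies were examined after their values were seen. NCF1B had log2 values of 6.64 in TWIST-1-transduced and 7.14 in vector-transduced cells, a ratio of -0.50 or 1.42-fold lower. NCF1C had values of 6.88 in TWIST-1-transduced and 7.30 in vector-transduced cells, a ratio of -0.42 or 1.34-fold lower. Both copies were past 1.2-fold under each of the 3 other scalings, and in each the ratio of NCF1 was the nearest to 0 of the 3 loci. All 3 loci had ratios below 0, and only the copies were past 1.2-fold as deposited. Probes shared between the loci would make these values depend on each other, so they may not be 3 separate measurements.

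NCF4 encodes p40phox, which binds a phosphoinositide of the phagosome membrane. It had log2 values of 8.22 in TWIST-1-transduced and 8.35 in vector-transduced cells, a ratio of -0.13 or 1.10-fold lower. This ratio lay inside the middle 95% of the brighter genes, which ran from -0.30 to 0.24, and was between -0.17 and -0.08 under the other scalings. The cytosolic subunits NCF1 and NCF4 both had ratios below 0 under each scaling, and only NCF1 with centred ratios reached the threshold.

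The RAC GTPases are the switch of the complex and also act in the cytoskeleton. RAC1, which is expressed in most cell types, had log2 values of 8.72 in TWIST-1-transduced and 8.80 in vector-transduced cells, a ratio of -0.08. Its pseudogene RAC1P2, looked at after the values were seen, had log2 values of 9.68 in TWIST-1-transduced and 9.67 in vector-transduced cells, a ratio of 0.0051. Whether the probes separate RAC1P2 from RAC1 was not tested. RAC2, the isoform restricted to blood cells, had a value of 8.58 on both arrays and a ratio of 0.0019. The direction of RAC2 depended on the scaling, at -0.04 with centred ratios and 0.06 after loess normalization, and the ratio of RAC1 was -0.12 with centred ratios and -0.02 after loess or another quantile normalization. Neither gene approached 1.2-fold under any scaling.

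**Figure D2:**
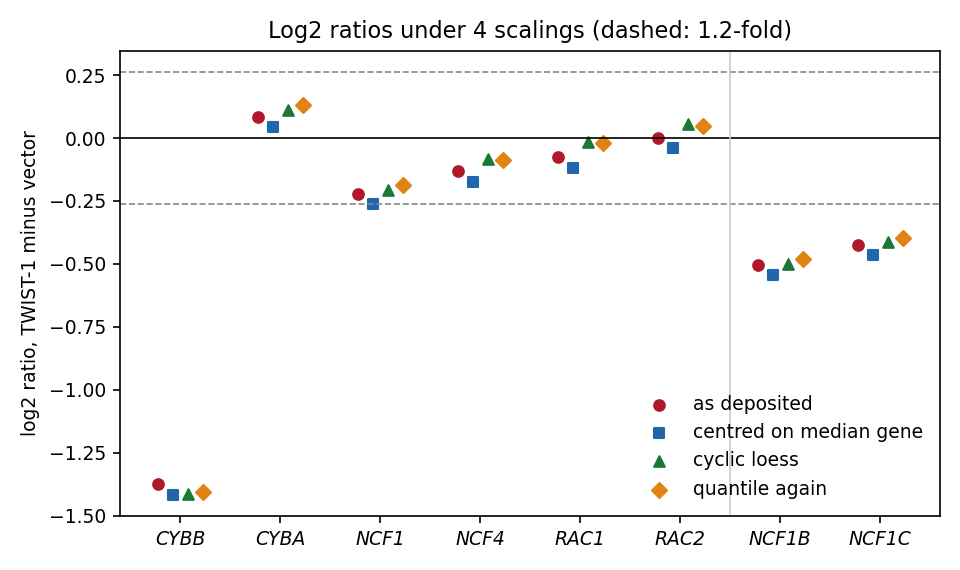
Log2 ratio of each subunit, and of the NCF1 copies to the right of the grey line, for the deposited values, for ratios centred on the median gene, after cyclic loess normalization and after another quantile normalization. CYBB lay between -1.42 and -1.37 in all 4, NCF1 touched the dashed 1.2-fold line only when centred, and the sign of RAC2 changed.

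Among the 6 subunits the order of ratios from the lowest was CYBB, NCF1, NCF4, RAC1, RAC2 and CYBA. The step between CYBB and NCF1 was 1.15 on the log2 scale, whereas the 5 others together spanned -0.22 to 0.08. The SD of ratios between rows that name the same gene was 0.069 over 479 genes, which describes differences within these arrays and not between cultures. The 5 other members cannot be ordered with confidence, since neighbours in that order lay within 0.09 of each other. The brighter genes whose ratio was most like that of CYBB were the succinate receptor gene SUCNR1 at -1.17, the spliceosomal RNA pseudogene RNU5D-2P at -1.16 and the antigen receptor segment TRBV3-1 at -1.14. With only 2 arrays, likeness is the difference in that single ratio, and each of these lay at least 0.20 from CYBB.

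**Figure D3:**
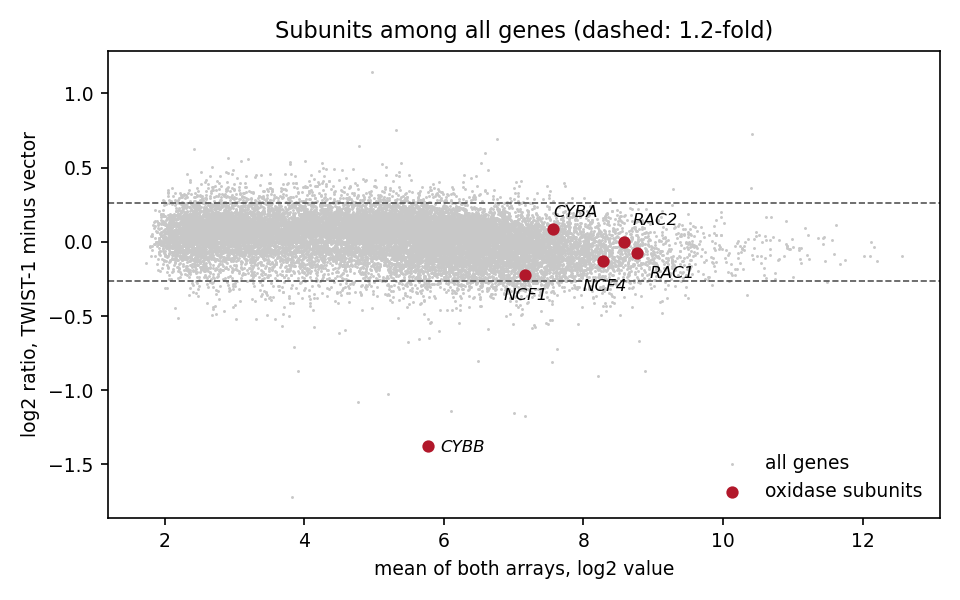
Log2 ratio against the mean log2 value of both arrays for all 22465 genes (grey) and the 6 subunits (red), with dashed lines at 1.2-fold. CYBB stands apart below the cloud at -1.37, and the other 5 subunits lie within it.

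The other catalytic homologs and their partners are known mainly from epithelia and other tissues. Of 11 other genes of the oxidase family, CYBC1 among them, 9 were measured and 0 were past 1.2-fold in either direction. The shares over all genes were 2.85% lower and 2.71% higher, so nothing is read from that count. The median ratio of the 9 was 0.10 (0.05 after loess normalization). Ratios ran from 0 for NOX1, an epithelial homolog of gp91phox, to 0.19 for NOX3, the homolog of the inner ear, and 0.18 for NOXA1, an activator of NOX1. The brighter genes included 4 of the 9, NOXA1 (0.18), DUOX1 (0.08), NOXO1 (0.05) and CYBC1 (0.03). The median ratio was 0.07 over all dimmer genes and 0.0035 over all brighter genes. The part of signal level in the family median was not tested. With centred ratios 2 of the 9 were below 0, NOX1 among them. CYBC1, the chaperone needed for stable gp91phox and p22phox, had log2 values of 7.25 in TWIST-1-transduced and 7.22 in vector-transduced cells, a ratio of 0.03 that turned to -0.01 with centred ratios.

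Of 21 genes that regulate or resemble RAC, 0 were past 1.2-fold, where 2.85% of all genes were lower and 2.71% higher. The median of the 21 was -0.03. PREX1, an exchange factor that activates RAC2 in neutrophils, had the highest ratio at 0.23, and it reached 0.29 and passed the threshold after loess and after another quantile normalization. VAV2, another exchange factor, followed at 0.12. The lowest were the exchange factor ARHGEF6 at -0.20 and SWAP70, which binds RAC, at -0.18. RAC3, the third paralog of the RAC family, had a ratio of 0.09.

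Of 22 measured genes among the kinases and lipid enzymes that activate the oxidase, 1 was at least 1.2-fold lower and 0 were higher. Across all genes 2.85% were lower and 2.71% higher, so nothing is read from that count. The median of the 22 was -0.0097. The lower gene was PLA2G4A, the cytosolic phospholipase that releases arachidonic acid, at -0.28, with log2 values of 7.03 in TWIST-1-transduced and 7.31 in vector-transduced cells. It was short of the threshold, at -0.24, after another quantile normalization. RAP1A, a small GTPase found with the membrane core, was next at -0.25 (-0.29 and past the threshold with centred ratios). The highest were HVCN1, the proton channel that balances the charge moved by the oxidase, at 0.13 and the kinase gene MAPK3 at 0.11.

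Of 21 measured genes among transcription regulators known to act on CYBB or in myeloid gene control, 0 were past 1.2-fold. By comparison, 2.85% of all genes were lower and 2.71% higher. The median of the 21 was 0, which became -0.04 with centred ratios and 0.03 after another quantile normalization. SPI1, which encodes PU.1, had log2 values of 7.06 in TWIST-1-transduced and 7.01 in vector-transduced cells, a ratio of 0.05. IRF8 and IRF1, which bind the CYBB promoter together with PU.1, had ratios of -0.08 and 0.07. The lowest were ELF1, an ETS factor, at -0.26 and CEBPE, a factor of granulocyte maturation, at -0.23, and the highest were CEBPB and GATA1, both at 0.19. With centred ratios ELF1 (-0.30) and CEBPE (-0.28) passed the threshold, and CEBPE also did after loess normalization (-0.30) and another quantile normalization (-0.29). These are transcript levels, and the activity of the factors was not measured.

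Of 18 measured genes of superoxide and peroxide defence, 0 were past 1.2-fold, beside 2.85% of all genes lower and 2.71% higher. The median of the 18 was 0.05, which became 0.02 after loess normalization, 0.03 when quantile normalized again and 0.0088 when centred. SOD1, the cytosolic superoxide dismutase, had a ratio of 0.12, and catalase (CAT) one of -0.10. The ratios ran from -0.14 for the mitochondrial peroxiredoxin PRDX3, next to the secreted dismutase SOD3 at -0.10, to 0.17 for the peroxiredoxin PRDX2 and 0.14 for the repair enzyme MSRA.

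**Figure D4:**
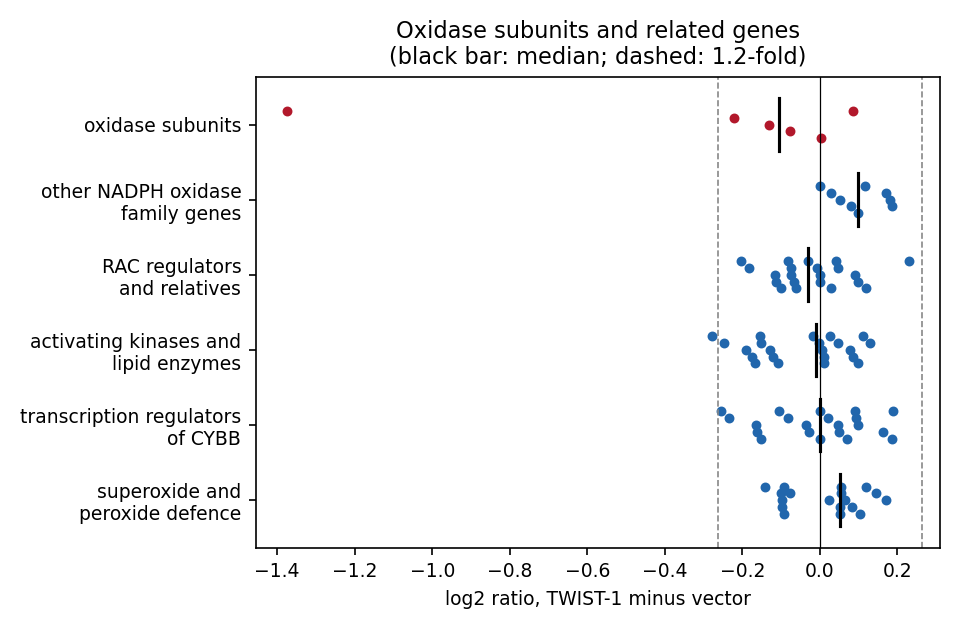
Log2 ratios of the 6 subunits (red) and of 5 lists of related genes (blue), each point 1 gene, with the list median as a black bar and dashed lines at 1.2-fold. CYBB at -1.37 lies alone to the left, and of the other points only PLA2G4A at -0.28 lies beyond a dashed line.

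The arrays themselves set limits on these values. TWIST1 had log2 values of 4.34 on the TWIST-1 array and 4.13 on the vector array, a ratio of 0.21 that is short of 1.2-fold, so the introduced gene is a weak check of the labels. GAPDH and ACTB had ratios of -0.02 and -0.09, which became 0.10 and 0.02 after loess normalization. Of the 8 spike-in control probe sets from bacteria and phage, 3 were at least 1.2-fold lower on the TWIST-1 array and 0 higher, with a median ratio of -0.12. Of 92 ERCC control probe sets, 3 were lower and 14 (15.2%) higher, with a median ratio of 0.05. Of 13 measured myeloid markers, 11 were among the brighter genes, with summed log2 values of 98.8 on the TWIST-1 array and 99.8 on the vector array. The monocyte markers CD14 (3.94 on the TWIST-1 array, 3.90 on the vector array) and CSF1R (5.20 and 5.09) were among the dimmer genes. Of the 13, 2 were at least 1.2-fold lower, FCER1G (-0.47) and LYZ (-0.27), against 2.85% of all genes and 4.23% of the brighter genes. LYZ was short of the threshold after loess (-0.14) and another quantile normalization (-0.26). With centred ratios 3 myeloid markers were past it, since TYROBP, at -0.24 as deposited, reached -0.29. Measured markers of T cells numbered 8, and those of B cells, erythroid cells, megakaryocytes and fibroblasts 6 each. In the same order, 3, 5, 2, 4 and 1 of them were among the brighter genes, so that trait was not particular to the myeloid list. Sums of lists of different size cannot be compared. In that order, the summed log2 values were 37.7, 32.5, 26.9, 29.1 and 24.2 on the TWIST-1 array. On the vector array they were 37.7, 32.2, 26.3, 28.5 and 23.4. The erythroid, megakaryocyte and fibroblast lists each had 1 gene at least 1.2-fold higher, KLF1 (0.35), GP9 (0.37) and FAP (0.36). Over all genes 2.71% were higher. FAP was among the dimmer genes, of which 3.77% were higher. The part of any of these controls and markers in the ratio of CYBB was not tested.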

How the data were processed

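RNA of TWIST-1-transduced and vector-transduced U937 cells was measured on 1 array each. The deposited values are on the log2 scale, quantile normalized by the authors per the paper's methods. When each array was sorted over all rows, the values still differed between the arrays by up to 0.14. Affymetrix Expression Console is named in the submitters' processing notes. For the summarisation of probes and the correction of background, no method was given in the sources used here. The values were used as deposited, without a filter on dim probes. Genes were named from the 23781 rows annotated with 1 symbol (1543 carried several and 45199 were not listed), updated through RefSeq identifiers for 21497. The brightest row stood for a gene, which gave 22465 genes. With 1 array per group no test was made, and only values, ranks and counts at 1.2-fold are given. Precision is limited by the number of arrays.

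The members and the gene lists were chosen with earlier results of these data known. The genes named are all members, the highest 2 and lowest 2 of each related list, all genes past 1.2-fold in those lists, the 3 genes with the ratio nearest to CYBB, and TWIST1, GAPDH and ACTB. SPI1, IRF8, IRF1, CYBC1, DUOX1, NOXO1, RAC3, SOD1, CAT, MPO, S100A8, CD14, CSF1R, TYROBP, MIR548W and the copies NCF1B, NCF1C and RAC1P2 were added after their values were seen. Alternatives were ratios centred on the median gene, cyclic loess (span 0.7, 3 iterations), another quantile normalization, the mean of a gene's rows, an offset of 16 on linear values and thresholds of 1.5-fold and 2-fold. Software was limma 3.58.1 in R 4.3.3, and pandas 2.3.3 and numpy 2.4.6 in Python 3.11.15, and the counting was tested on simulated data. Some items are not reported here.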

Additional observations from a re-analysis of the deposited data

How the results depend on the processing

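No paired analysis was possible because each condition had 1 array. Each member had a single row, so the mean of a gene's rows gave the same values and other rows gave none. The ratio of CYBB was -1.42 with centred ratios and -1.41 after loess or another quantile normalization and was -1.06 with the offset, which shrinks ratios by its construction. The number of subunits at least 1.2-fold lower, 1 as deposited, was 2 with centred ratios, which subtract 0.04 from every gene, and 1 under each other alternative, thresholds of 1.5-fold and 2-fold included. In the lists, the count lower among activating kinases and lipid enzymes, 1 as deposited, was 2 with centred ratios and 0 after another quantile normalization. The count lower among transcription regulators of CYBB, 0 as deposited, was 1 after loess, 1 after another quantile normalization and 2 with centred ratios. The count higher among RAC regulators, 0 as deposited, was 1 after loess and 1 after another quantile normalization. For granule effectors the median of -0.09 turned to 0.028 after loess normalization, and the count lower, 3, was 2 after loess and 1 when quantile normalized again. The cause was not tested for the loess and quantile alternatives. The share of all genes at least 1.2-fold higher, 2.71%, was 1.66% among the brighter genes and 5.78% over all transcript clusters, and the share lower, 2.85%, was 4.23% among the brighter genes and 3.33% over all transcript clusters.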

Other observations

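Of 13 measured genes of granule and antimicrobial proteins that act beside the oxidase in phagocytes, 3 were at least 1.2-fold lower in TWIST-1-transduced cells and 0 were higher, with a median log2 ratio of -0.09. Over all genes 2.85% were lower, and over the brighter genes, to which 8 of the 13 belonged, 4.23%. The list was chosen with these ratios known, so nothing is read from its count. The lower genes were the calprotectin subunit S100A9 at -0.34, proteinase 3 (PRTN3) at -0.29 and lysozyme (LYZ) at -0.27. S100A9 was past 1.2-fold under each of the 3 other scalings, PRTN3 was -0.20 after loess normalization and -0.25 after another quantile normalization, and LYZ was -0.14 after loess normalization and -0.26 after another quantile normalization, just short of the threshold. S100A8, the partner of S100A9 in calprotectin, was -0.20 as deposited and past the threshold only after loess normalization, at -0.27. The highest ratios were those of LCN2 at 0.22 and CAMP at 0.21, and myeloperoxidase (MPO), which turns hydrogen peroxide into hypochlorous acid, had 0.16.

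Of the 22465 genes, 1177 (5.24%) had exactly the same deposited value on both arrays, in every digit given, while only 14 others differed by less than 0.0005. The share was 2.99% among the brighter genes and 7.49% among the dimmer ones. None of the 6 subunits was among them, but 1 of 9 other oxidase family genes (NOX1), 2 of 21 RAC regulators and 2 of 21 transcription regulators were, and the median of 0 for the transcription regulators is such a value.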
